A study of Mus musculus with 12 samples.

Results

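The genes described here are the protein-coding genes of mouse chromosome 11 whose start lies from 66 to 74 Mb (GENCODE M21, GRCm38), a block that holds Trp53. The deposited table holds 202 of them, among 21474 protein-coding genes and 43346 gene IDs in all. The block was chosen by measured values: chromosome 11 transcripts were higher in the D2-13B6 libraries of these same data than in the other groups. Every comparison with D2-13B6 is therefore given as a description, with no test, while comparisons among the other groups are tested. Its working name speaks of gene dosage, but only RNA was measured, so it is called the block below.

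RNA was sequenced from mouse embryonic stem cells in 4 groups of 3 libraries. B6 is the inbred strain C57BL/6J and D2 is DBA/2J. B6-13D2, of genotype B6.D2-(rs30079041-rs51756099)/Bakr, carries a D2 segment of chromosome 13 on the B6 background, and D2-13B6, of genotype D2.B6-(rs29224292-rs13469455)/Bakr, carries a B6 segment of chromosome 13 on the D2 background. Chromosome 11 lies outside that segment in both congenic strains by design. All groups grew in 15% serum with LIF and a pair of kinase inhibitors, 1 µM PD0325901 against MEK and 3 µM CHIR99021 against GSK3. Per the labels' protocols the libraries of a strain come from 3 cultures of 1 line, which the titles call technical replicates, so p-values measure the spread between cultures, and a strain cannot be told apart from its line.

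Trp53 encodes p53, a transcription factor that is kept low by the ubiquitin ligase Mdm2 and, after DNA damage, turns on genes of cell cycle arrest, repair and apoptosis. Embryonic stem cells are known for abundant Trp53 transcript. The genes around it on chromosome 11 are mixed in function: they include general transcription and translation factors, a run of skeletal muscle myosins, a run of lipoxygenases, immune genes and olfactory receptors. For many genes the amount of transcript follows the number of copies of the chromosome they lie on, which is what gene dosage means; copy number was not measured here.

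Libraries held 22184196 to 36411799 expected counts. Against that protocol, the labels give B6 replicate 3 another line name than B6 replicates 1 and 2, and results that rest on B6 are given without it where they are summarised. The D2 titles and cell line field also name different lines, and the series text ends the D2-13B6 segment at rs51756099 where the sample labels have rs13469455. The molecule field of every sample reads genomic DNA, although the titles say RNA-seq and the protocol describes RNA isolation and an mRNA library kit. All 8 stem cell markers were expressed in every group, at a summed level of 4156 to 4337 CPM in B6, 2892 to 2926 in D2, 4732 to 4876 in B6-13D2 and 3444 to 3456 in D2-13B6. CPM, the unit of all levels below, are counts scaled to a common library size. The 8 fibroblast markers (Col1a1, Col1a2, Col3a1, Thy1, Postn, Pdgfrb, Dcn and Lum) summed to 9383 to 10190 CPM in B6, 14180 to 16970 in D2, 3095 to 3182 in B6-13D2 and 7731 to 8055 in D2-13B6. Col1a1, itself on chromosome 11, made up 65.9% to 67.1% of that sum, and the 7 others summed to 3135 to 3361, 4692 to 5656, 1032 to 1075 and 2615 to 2747 CPM in the same order. Col3a1, Postn, Dcn and Lum went against the sum in D2-13B6 against B6, with log2 fold changes of 0.16, 0.45, 1.09 and 0.52. The 5 blood and macrophage markers summed to 32.5 to 36.2 CPM in B6, 70.2 to 76.1 in D2, 46.1 to 51.2 in B6-13D2 and 109.9 to 119.5 in D2-13B6. In such bulk samples, fewer cells of a type and less RNA per cell cannot be told apart.

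The block took a larger share of the counts in D2-13B6 than in any other group. Its 202 genes held 1.03%, 1.01% and 1.03% of the counts of the B6 libraries, 1.04%, 1.03% and 1.03% in D2, and 1.08%, 1.10% and 1.08% in B6-13D2. The D2-13B6 libraries gave 1.40%, 1.41% and 1.43%. B6 and D2 overlapped, while D2-13B6 stood above all others: the mean share was 1.42% ± 0.0156 (SD, n = 3) in D2-13B6 and 1.08% ± 0.0124 in B6-13D2, the next highest. All of chromosome 11 held 12.2% of the counts in each D2-13B6 library and 9.52% to 10.4% in the other 9.

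The shift was also seen gene by gene. Of the 202 genes, 150 passed the filter on low counts and were analysed gene by gene. Of the 52 that did not pass, 17 had no count in any library and 35 had at least 1, and none had a mean above 0.216 CPM. Of the 150, 3 (Alox15, Pik3r6 and Fbxo39) passed only through their D2-13B6 counts and so had to be high there; the 147 others had median shifts of 0.45 against D2, 0.37 against B6 and 0.32 against B6-13D2, and 60 had all D2-13B6 libraries above the other 9. For each library, the log2 level of each of the 150 genes was set against its mean in the 9 libraries of B6, D2 and B6-13D2, and the median was taken relative to that of the other autosomes. This median was 0.34, 0.34 and 0.37 in D2-13B6. It was between -0.01 and 0.01 in B6, -0.05 in each D2 library and 0.03 to 0.06 in B6-13D2. Of the 150 genes, 112 to 115 lay above the median of the other autosomes in each D2-13B6 library, against 66 to 87 in the others.

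**Figure D1:**
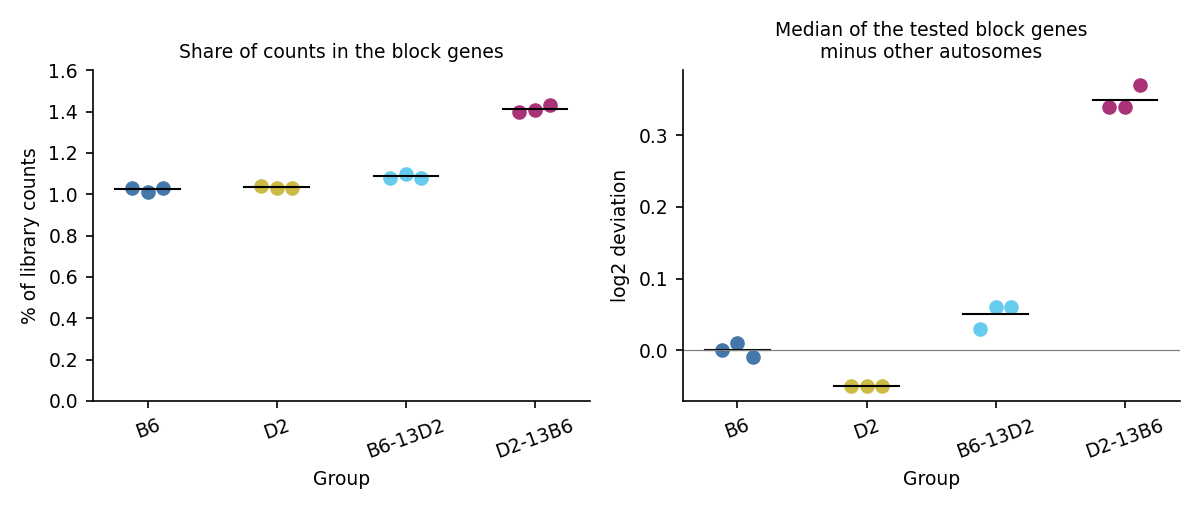
Left, percent of each library's expected counts in the 202 block genes, by group; right, median log2 deviation of the 150 tested block genes from their mean over the B6, D2 and B6-13D2 libraries, minus the same median over the other autosomes. Each point is 1 of 3 libraries and each line a group mean; the D2-13B6 libraries sit at 1.40% to 1.43% and at 0.34 to 0.37, above the other 9 in both panels.

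Against each other group, most tested block genes were higher in D2-13B6. Their median log2 difference from D2, after subtracting the median of the other autosomes, was 0.45, a ratio of 1.37. It was 0.38 against B6 (a ratio of 1.30) and 0.33 against B6-13D2 (1.25). Against D2, 120 of 150 block genes had a log2 fold change above 0, where 50.0% of all 17148 tested genes did. Against B6 there were 106 (44.3% of all genes), and against B6-13D2 there were 107 (53.9%). By group means, 81 block genes were higher in D2-13B6 than in each of the 3 other groups (22.8% of all genes) and 7 were lower than in each (19.6%). In 63 of the 150, or 42.0%, all 3 D2-13B6 libraries lay above the other 9, where 11.7% of all tested genes did. These shares describe the contrast by which the block was chosen and are read no further. Without B6 replicate 3 the medians were 0.45, 0.38 and 0.32 in the same order.

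The block did not stand apart from the rest of its chromosome. Against the mean of the 3 other groups, the median shift was 0.38 for the block and 0.37 for the 1236 other tested genes of chromosome 11, each relative to the other autosomes. Every other autosome had a median between -0.07 and 0.04, and the X chromosome 0.11. In windows of 8 Mb along chromosome 11, counting genes of any type, the block's window had a median shift of 0.36 over 158 genes, and the 14 other windows ran from 0.27 to 0.49. In windows of 1 Mb inside the block, the medians ran from 0.23 (20 tested genes from 72 to 73 Mb) to 0.63 (4 genes from 71 to 72 Mb). The stretch from 69 to 70 Mb, which holds Trp53 among 55 tested genes, had a median of 0.36, with 41 above 0.

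**Figure D2:**
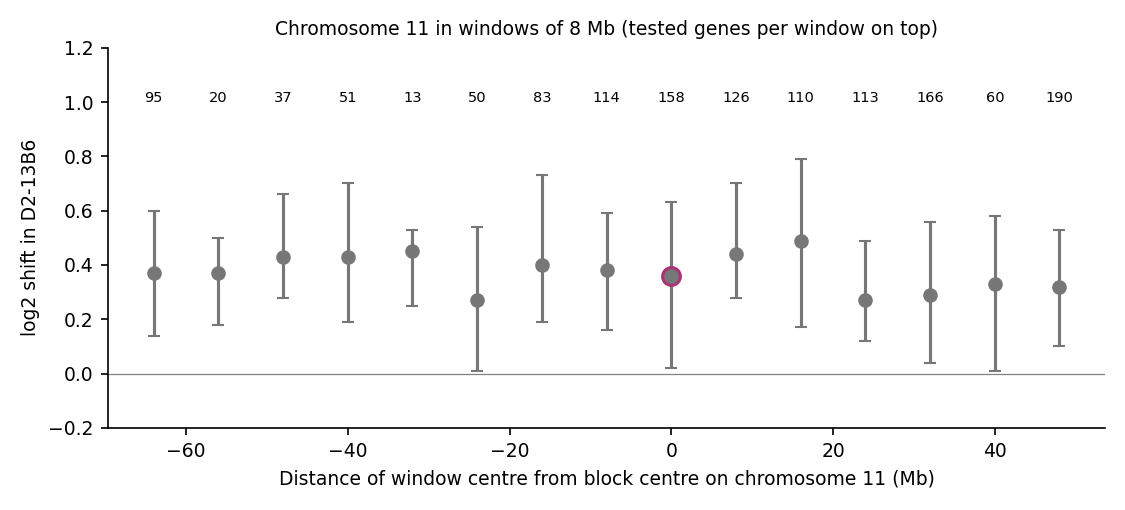
Median log2 shift of D2-13B6 against the mean of the 3 other groups, relative to the other autosomes, in windows of 8 Mb along chromosome 11 by distance of the window centre from the block centre in Mb; bars span the 25th to 75th percentiles over genes and the numbers on top count tested genes of any type. The block, ringed at distance 0, has a median of 0.36, within the 0.27 to 0.49 of the other windows.

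The borders of the block are positions and not changes in level. Zkscan6, a zinc finger gene that starts just below 66 Mb (chr11:65807175-65829239), had log2 fold changes in D2-13B6 of 0.12 against D2, 0.37 against B6 and 0.44 against B6-13D2. Just inside, Shisa6, which encodes a protein of glutamate receptor complexes, had -0.92, -0.14 and 1.58, and Pirt, which encodes a regulator of sensory ion channels, had 1.03, 1.07 and 0.29. Dnah9, which starts between Zkscan6 and the border and encodes a dynein heavy chain of cilia, was too low to test, with 30 counts over all libraries. At the upper border, Olfr397 and Olfr398 inside and Olfr139 and Olfr399 outside, all olfactory receptor genes, had 0 counts in every library.

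The shift was clearest in abundant genes. Among the 50 block genes of highest mean level (35.3 to 1603 CPM), the median shift was 0.37, the middle 50% of genes spanned 0.24 to 0.53, and 43 lay above 0. In the next 50 (4.94 to 34.1 CPM) the median was 0.38, with a span of 0.03 to 0.62 and 39 above 0. In the 50 of lowest level (0.218 to 3.98 CPM) the median was 0.34, but the span ran from -0.26 to 0.84 and 33 lay above 0. The medians were thus close while the spread widened as counts thinned. All 3 D2-13B6 libraries lay above the other 9 in 30, 19 and 14 genes of these groups, from high to low; 3 of the 14 are the genes that passed the filter only through D2-13B6. Genes of the other autosomes in the same ranges had medians of -0.05, 0.00 and 0.15, and 7.55%, 9.45% and 9.29% of them lay above all others in this way. Against the mean of the 3 other groups, 112 of 150 genes had a log2 fold change above 0, as 49.2% of all tested genes did, and 73 lay between 0.2 and 0.8.

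**Figure D3:**
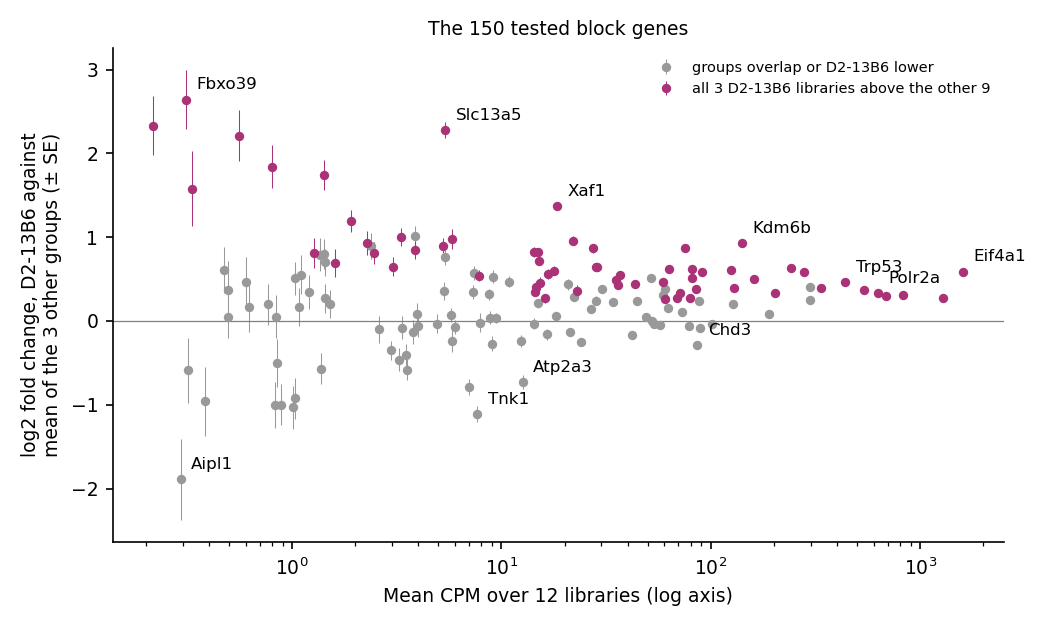
Log2 fold change of D2-13B6 against the mean of the 3 other groups, with its standard error from edgeR, against mean CPM over 12 libraries (log axis), for the 150 tested block genes. Coloured points are the 63 genes whose 3 D2-13B6 libraries all lie above the other 9; points narrow towards a band above 0 at the right, where Trp53 lies at 0.46.

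Trp53 (ENSMUSG00000059552, chr11:69580359-69591873, + strand) followed this band. Its level was 408, 429 and 407 CPM in the B6 libraries, 402, 392 and 426 in D2, 387, 379 and 375 in B6-13D2, and 539.6, 554 and 556 in D2-13B6. The D2-13B6 libraries were all above the other 9, and the B6 and D2 libraries overlapped. The log2 fold change of D2-13B6 was 0.44 against D2, 0.41 against B6 and 0.53 against B6-13D2, and its counts were whole numbers in every library. Among the groups that can be tested, D2 and B6 did not differ beyond the spread (log2 fold change -0.03 ± 0.0361 SE, edgeR adjusted p = 0.497), with a sign that turned to 0.02 under RLE size factors. In B6-13D2 against B6 the log2 fold change was -0.13 ± 0.0361 (edgeR adjusted p = 0.0062), and Trp53 lay lower in all 3 B6-13D2 libraries than in the B6 libraries. That call depends on the scaling: the value was -0.06 with RLE size factors (edgeR adjusted p = 0.137) and with DESeq2 (adjusted p = 0.123). Per kb of exon, Trp53 averaged 108 CPM over the 12 libraries, against 541.7 for Eif5a, 369.9 for Eif4a1 and 89.2 for Polr2a, so it is among the abundant genes of the block.

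The genes next to Trp53 span a wide range of behaviour. Of 16 named neighbours, Trp53 included, 15 were tested, 13 had a shift above 0 and the median shift was 0.41, where the median of all tested genes was 0.02. Summed, they reached 4205 to 4411 CPM in D2-13B6 and 2930 to 3287 in the 9 other libraries. Wrap53, which lies head to head with Trp53 and encodes a telomerase and Cajal body protein, is described because of its values. It had 34.3, 34.3 and 33.4 CPM in B6, 20.2, 21.2 and 21.3 in D2, 30.7, 30.3 and 28.9 in B6-13D2, and 35.9, 33.0 and 39.1 in D2-13B6. B6 and D2-13B6 therefore overlapped for Wrap53, while D2 was lowest, at -0.70 ± 0.0607 against B6 on the log2 scale (edgeR adjusted p = 2.24e-08). Sat2, of the family of polyamine acetyltransferases, was the only tested block gene whose 3 D2-13B6 libraries all lay below the other 9, as 8.09% of all tested genes did. Its levels were 1.07, 1.02 and 0.919 CPM there against 1.24 to 2.01 in the others, from 27 to 61 counts a library.

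The 100 bases before the RefSeq start of 4 block genes are shown because these genes had all D2-13B6 libraries above the other 9 while their promoters differ in their core elements. They are read 5′ to 3′ on the gene's strand from GRCm38.p6: chr11:69580259-69580358 (+) for Trp53, chr11:69672424-69672523 (−) for Eif4a1, chr11:69758634-69758733 (−) for Polr2a and chr11:72301529-72301628 (+) for Xaf1. Capitals mark the NF-Y box CCAAT, the GC box GGGCGG and the TATA box TATAAA on either strand, so that the capitals of Trp53 and Xaf1 are CCAAT and GGGCGG read on the opposite strand.
Trp53: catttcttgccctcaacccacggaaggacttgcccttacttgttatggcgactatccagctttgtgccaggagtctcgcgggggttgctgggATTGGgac
Eif4a1: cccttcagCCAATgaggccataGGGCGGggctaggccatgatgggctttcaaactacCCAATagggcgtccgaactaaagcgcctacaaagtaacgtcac
Polr2a: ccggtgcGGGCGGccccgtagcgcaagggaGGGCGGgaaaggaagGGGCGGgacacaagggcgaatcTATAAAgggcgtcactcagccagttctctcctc
Xaf1: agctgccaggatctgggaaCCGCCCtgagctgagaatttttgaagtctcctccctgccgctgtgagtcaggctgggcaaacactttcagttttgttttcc

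Across the block, promoter elements were about as frequent as elsewhere. RefSeq promoters of 300 bases around the start were matched for 150 of the 202 genes and for 16522 protein-coding genes in all. On either strand, GGGCGG was in 46.7% of block promoters and 48.2% of all promoters. CCAAT was in 36.0% against 38.8%, TATAAA in 12.7% against 12.9%, and CACGTG, an E-box, in 10% against 8.09%. Of the 63 genes above all other libraries in D2-13B6, 46 had a promoter entry, of which 65.2% held GGGCGG, against 61.1% of the 108 tested block genes with an entry. A match is a run of letters and not a bound site.

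Genes of transcription and chromatin are the role group with the most tested genes. Of 17, 15 had a shift above 0, and the median shift was 0.38, the same as for all tested block genes. In 12 of the 17 all D2-13B6 libraries lay above the other 9, as in 42.0% of the tested block genes and 11.7% of all tested genes. The list was not tested against either. Polr2a, the largest subunit of RNA polymerase II (ENSMUSG00000005198), had 634, 626 and 621 CPM in B6, 554, 545 and 606 in D2, 576, 574 and 595 in B6-13D2, and 733, 742 and 755 in D2-13B6. Mybbp1a, a nucleolar Myb-binding protein, had 783 to 809 CPM in B6, 708 to 734 in D2, 821 to 835 in B6-13D2 and 960.4 to 970.3 in D2-13B6. For both genes the D2-13B6 libraries stood clear of all others, by a log2 fold change against the mean of 3 groups of 0.33 for Polr2a and 0.31 for Mybbp1a. Senp3, a nucleolar SUMO protease, had 405 to 413 CPM in D2-13B6 and 269.8 to 342 elsewhere; its reads were partly divided among genes, so its level is uncertain. Kdm6b, a histone demethylase that is named here because of its values, had 218, 219.6 and 221 CPM in D2-13B6 and 107 to 128 in the others, again with divided reads and a gene on its opposite strand.

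Chd3, a helicase of the NuRD repressor complex, went the other way. It had 112, 105 and 98.4 CPM in B6, 123, 118 and 115 in D2, 47.6, 53.2 and 50.8 in B6-13D2, and 72.8, 70.5 and 67.0 in D2-13B6. The D2-13B6 libraries lay below B6 and D2 and above B6-13D2, with log2 fold changes of -0.76 against D2, -0.58 against B6 and 0.47 against B6-13D2. Chd3 was thus at its lowest and its highest in the same groups as the summed fibroblast markers, whose part in the result was not tested.

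All 8 tested genes of cell division and chromosome ends had a shift above 0, with a median of 0.46. In 4 of them all D2-13B6 libraries lay above the other 9, as in 42.0% of the tested block genes and 11.7% of all tested genes. Aurkb, the mitotic kinase of the chromosomal passenger complex, had 65.9, 67.7 and 73.01 CPM in B6, 59.3, 62.3 and 65.7 in D2, 89.7, 94.5 and 83.8 in B6-13D2, and 104, 102 and 105 in D2-13B6. Its D2-13B6 libraries were above the other 9, and B6-13D2 lay between them and B6. Mis12, a kinetochore subunit whose reads were partly divided, had 48.1 to 48.2 CPM in D2-13B6 and 28.2 to 36.8 elsewhere. Ctc1, of the complex that caps and replicates chromosome ends, had 152 to 156 CPM in D2-13B6 against 143 to 151 in B6-13D2, 117 to 124 in B6 and 90.4 to 98.3 in D2. For 4 of the 8 the D2-13B6 libraries were not above all others, among them Ndel1, a dynein regulator: at 63.2 to 69.4 CPM in D2-13B6 it lay between D2 (75.3 to 79.6) and B6 (51.2 to 61.4), with B6-13D2 lowest (33.9 to 35.6).

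Genes of translation and RNA handling were the most even group. All 8 had a shift above 0, from 0.29 to 0.62, and 7 had every D2-13B6 library above the other 9. The latter held for 42.0% of the tested block genes and 11.7% of all tested genes, and the list was not tested against either. Eif5a, the elongation factor that carries hypusine, had 1218, 1154 and 1219 CPM in B6, 1253, 1253 and 1175 in D2, 1212, 1294 and 1223 in B6-13D2, and 1463, 1487 and 1501 in D2-13B6. Eif4a1, the helicase that unwinds messenger RNA for initiation, had 1295 to 1500 CPM in B6, 1354 to 1419 in D2, 1463 to 1585 in B6-13D2 and 2075 to 2241 in D2-13B6. Its reads were partly divided among genes and it contains small RNA genes. The log2 fold change against the mean of 3 groups was 0.28 ± 0.029 SE for Eif5a and 0.59 ± 0.0379 for Eif4a1. Fxr2, a paralog of the fragile X protein, had 237 to 242 CPM in D2-13B6, above 211 to 224 in B6-13D2, 199 to 207 in B6 and 147 to 159 in D2.

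**Figure D4:**
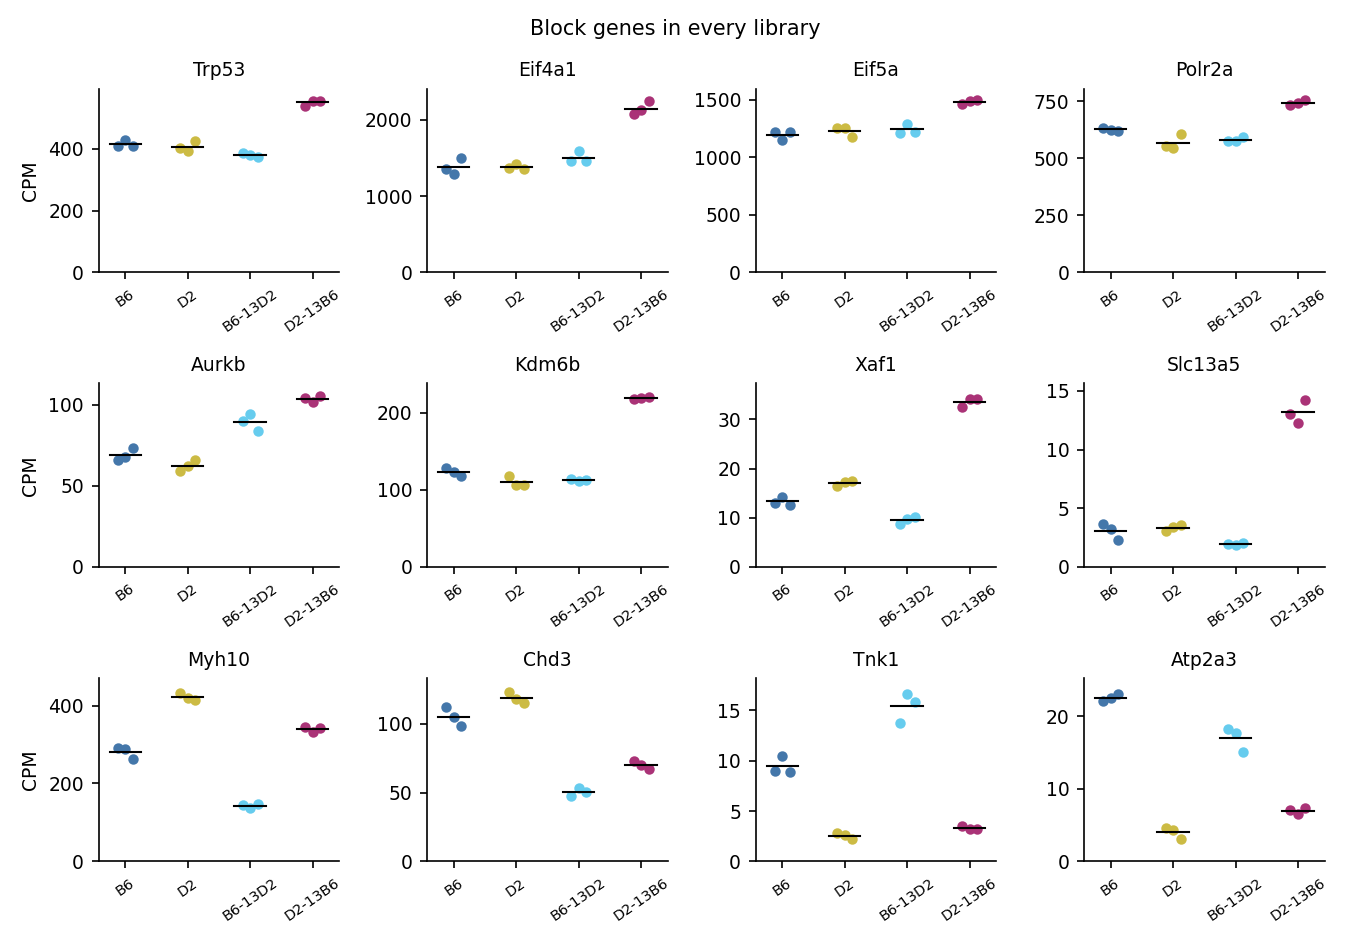
CPM of 12 block genes in every library, by group, on axes that start at 0; each point is a library and each line a group mean of 3. The D2-13B6 libraries are above the other 9 in the 8 panels from Trp53 to Slc13a5 and are not for Myh10, Chd3, Tnk1 and Atp2a3.

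Of 14 genes of mitochondria and metabolism, 11 had a shift above 0, with a median of 0.41. All D2-13B6 libraries were above the others in 6, as in 42.0% of the tested block genes and 11.7% of all tested genes. Pfas, an enzyme of purine synthesis, had 369 to 374 CPM in D2-13B6 against 239 to 254 in B6, 218 to 225 in D2 and 266 to 288 in B6-13D2. Slc25a11, the mitochondrial oxoglutarate carrier, had 76.6 to 81.0 CPM against 60.4 to 71.5 elsewhere, a difference of 0.27 on the log2 scale, though its reads were divided and it overlaps Rnf167 on the opposite strand. C1qbp, a protein of the mitochondrial matrix, had 327 to 342 CPM in D2-13B6 and overlapped B6-13D2 (307 to 339.6). Acadvl, of long-chain fatty acid oxidation, had 63.9 to 66.01 CPM, within the range of D2 (58.3 to 69.7) and above B6 (42.1 to 49.4) and B6-13D2 (30.04 to 33.0).

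Vesicle traffic, ubiquitin and autophagy genes had a median shift of 0.48, with 13 of 14 above 0. That median was above those of the transcription, division, translation and metabolism groups, a difference that was not tested. In 10 of the 14 all D2-13B6 libraries were above the other 9, where 42.0% of the tested block genes and 11.7% of all tested genes were. Ankfy1, an endosomal Rab effector, had 108, 108 and 99.0 CPM in B6, 137, 139 and 139 in D2, 92.1, 85.3 and 85.3 in B6-13D2, and 169, 166 and 163 in D2-13B6. Psmb6, a catalytic subunit of the proteasome, had 203 to 209.5 CPM in D2-13B6 and 120.2 to 172 elsewhere. Gabarap, which joins autophagosomes to their cargo, had a shift of -0.05: its 81.8 to 85.7 CPM in D2-13B6 lay below B6 (93.4 to 102) and D2 (115 to 117) and above B6-13D2 (56.1 to 63.1). Kif1c, a kinesin of vesicle transport, had 136 to 139 CPM in D2-13B6, overlapping B6 (129.6 to 137), with D2 higher (150.0 to 169) and B6-13D2 lower (74.4 to 83.0). For Gabarap and Kif1c the group order of B6-13D2, B6 and D2 was that of the fibroblast markers, whose part was not tested. Ankfy1, although highest in D2-13B6, had the same order of those groups.

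**Figure D5:**
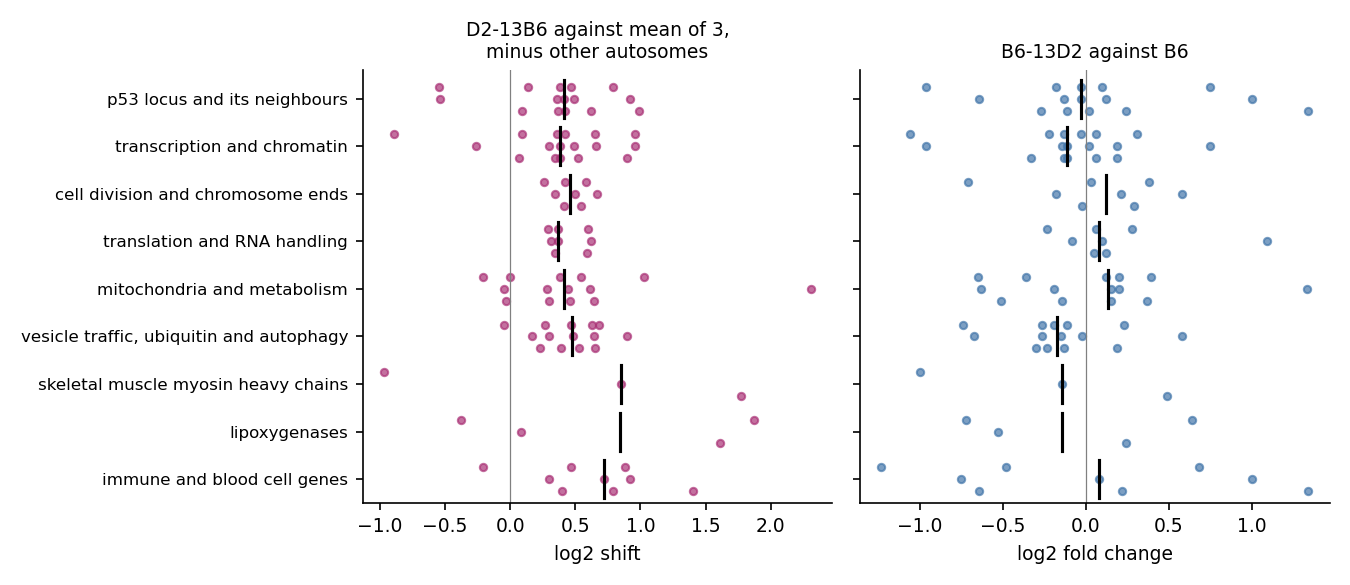
Each point is a tested block gene, sorted by role, with the list median as a line: left, log2 shift of D2-13B6 against the mean of the 3 other groups relative to the other autosomes, right, log2 fold change of B6-13D2 against B6. On the left all list medians lie above 0, from 0.37 to 0.85, and on the right they lie on either side of 0. The 0.85 of the 4 tested lipoxygenases includes Alox15 at 1.61, which passed the filter only through D2-13B6.

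The tissue-specific families of the block were mostly near or below detection. Of 6 skeletal muscle myosin heavy chains, 3 were tested. Myh13, the chain of extraocular muscle, had 21.5, 21.4 and 20.6 CPM in D2-13B6 and 9.76 to 13.8 in the others, and Myh3, the embryonic chain, had 2.66 to 3.20 against 0.571 to 1.32. Myh2, a fast-fibre chain, was lower in D2-13B6 (0.387 to 0.510 CPM) than in B6 (0.797 to 1.16) and D2 (1.45 to 1.75) and overlapped B6-13D2 (0.415 to 0.679). Reads of these near-identical neighbours were divided among them, so each level is uncertain; Myh1 had a mean of at most 0.557 CPM in any group and was not tested. Of 5 muscle markers, only Acta1 and Actn2 were tested, and Myod1, Myog and Ckm averaged at most 0.242 CPM in any group. Acta1 averaged 22.2 CPM in D2-13B6, 14.0 in B6-13D2, 48.1 in B6 and 59.2 in D2, while Actn2 averaged 1.42 CPM in D2-13B6 and 0.631 to 1.22 elsewhere. The part of muscle cells in these levels was not tested. All 19 olfactory receptors of the block, which serve smell in the nose, stayed below the filter, at a summed 0 to 0.416 CPM in any library. Olfr376, Olfr20, Olfr1 and Olfr381, those of highest mean over the 12 libraries, had at most 0.333, 0.129, 0.0834 and 0.042 CPM in a library.

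Of 6 lipoxygenases, enzymes that oxidise polyunsaturated fatty acids, 4 were tested, and no common direction was seen. Alox12e, the epidermal enzyme, had 60, 57 and 54 counts in D2-13B6 libraries and 6 to 27 in the others. Alox12, the platelet enzyme, had 1.97 to 2.91 CPM in D2-13B6, below B6 (5.36 to 6.17) and B6-13D2 (3.99 to 4.09) and overlapping D2 (1.37 to 2.17). Alox15 had 22, 21 and 22 counts in D2-13B6 and 0 to 11 elsewhere. It passed the filter only through D2-13B6 and so had to be high there. The list's median shift of 0.85 over 4 genes includes it. Aloxe3 did not separate the groups, at 0.795 to 0.953 CPM in D2-13B6 and 0.308 to 1.33 in the others.

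Immune and blood cell genes had a median shift of 0.72 over the 9 tested of 15, with 8 above 0. In 3 of the 9 all D2-13B6 libraries were above the other 9 libraries, where 42.0% of the tested block genes and 11.7% of all tested genes were. Xaf1, an interferon-induced partner of the caspase inhibitor XIAP, had 13.1, 14.3 and 12.7 CPM in B6, 16.5, 17.4 and 17.4 in D2, 8.76, 9.83 and 10.1 in B6-13D2, and 32.5, 34.3 and 34.1 in D2-13B6. Its log2 fold change in D2-13B6 was 0.98 against D2, 1.33 against B6 and 1.82 against B6-13D2, the largest against the mean of 3 groups among tested block genes that averaged over 10 CPM in the 12 libraries. Cd68, a lysosomal protein of macrophages, had 23.0 to 27.4 CPM in D2-13B6, overlapping D2 (21.02 to 26.6) and B6-13D2 (22.1 to 24.5). Macrophage markers off the block were highest in D2-13B6. From B6 over B6-13D2 and D2 to D2-13B6, Lyz2 averaged 17.7, 20.1, 36.8 and 67.0 CPM, and Csf1r 2.52, 2.79, 6.42 and 10.4. The block's immune genes did not all share that order: Xaf1 and Tnfsf12 had their lowest means in B6-13D2, and Acap1 its highest. Ptprc, which marks all white blood cells, averaged 2.68 CPM in D2-13B6 and at most 1.09 elsewhere; the part of such cells in these results was not tested.

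The highest fold changes of the block in D2-13B6 came from genes with few reads, with 1 exception. Slc13a5, the sodium-coupled citrate transporter, had 3.65, 3.23 and 2.27 CPM in B6, 3.08, 3.39 and 3.55 in D2, 1.94, 1.85 and 2.04 in B6-13D2, and 13.0, 12.3 and 14.3 in D2-13B6. That is a log2 fold change of 1.98 against D2, though its reads were divided and 1700051A21Rik overlaps it on the opposite strand. Fbxo39, an F-box protein, had 27, 24 and 28 counts in D2-13B6 and 1 to 13 elsewhere, Pik3r6, a regulatory subunit of a leukocyte phosphoinositide kinase, had 15 to 24 against 1 to 5, and Gucy2e, a retinal guanylate cyclase, had 35 to 59 against 3 to 12. Together with Alox12e these are the 5 highest, and in each the D2-13B6 libraries were above the other 9. For Pik3r6 and Fbxo39, which passed the filter only through D2-13B6, the filter itself required this group to be high.

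The 5 lowest fold changes did not follow 1 pattern. Aipl1, a chaperone of photoreceptors, had 2 to 4 counts in D2-13B6 libraries and 3 to 16 in the others. Tnk1, a non-receptor tyrosine kinase, had 9.01, 10.4 and 8.92 CPM in B6, 2.79, 2.61 and 2.19 in D2, 13.8, 16.6 and 15.8 in B6-13D2, and 3.51, 3.27 and 3.20 in D2-13B6. It was thus low on the D2 background and high on the B6 background, and D2-13B6 was still above D2 in all 3 libraries. Tekt1, a tektin of cilia and flagella, was also low on the D2 background (0.208 to 0.364 CPM in D2 and 0.332 to 0.578 in D2-13B6, which overlap) and higher on the B6 background (1.33 to 2.20 in B6 and 1.43 to 1.77 in B6-13D2, which overlap). Cfap52, another axonemal protein, had 1.61 to 1.78 CPM in D2 and 0.332 to 0.476 in D2-13B6, which overlapped B6 (0.214 to 0.630). With Myh2, these are the 5.

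Between the parental strains, genes of the block were called about as often as genes elsewhere. In D2 against B6, 94 of 150 genes were called (62.7%) at an edgeR adjusted p of 0.05, where 60.0% of all tested genes were. Of these, 40 rose (26.7%, against 29.8% of all genes) and 54 fell in D2 (36.0%, against 30.3%), and the median log2 fold change was -0.04. With RLE size factors 46 rose and 48 fell. A change of at least 1 on the log2 scale was seen for 18 genes (12%, against 11.3%). Without B6 replicate 3, 88 genes were called (57.9%, against 54.3% of all tested genes), and 87 of them were also called with it.

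The named differences between D2 and B6 are those of genes whose groups did not overlap. Atp2a3, the calcium pump SERCA of blood and epithelial cells, had 22.1, 22.5 and 23.1 CPM in B6 and 4.62, 4.39 and 3.05 in D2, which is -2.46 ± 0.108 SE on the log2 scale (edgeR adjusted p = 2.81e-12). It lay at 15.1 to 18.2 CPM in B6-13D2 and 6.56 to 7.32 in D2-13B6, so it too was low on the D2 background. Tnk1, given above, fell in D2 by 1.89 ± 0.119 (edgeR adjusted p = 3.69e-10). Acap1, an Arf GTPase-activating protein, fell by 1.16 ± 0.184 (edgeR adjusted p = 3.16e-05), from 5.08 to 6.68 CPM in B6 to 2.36 to 3.23 in D2. Among genes that rose, Cd68 went from 11.7, 11.7 and 11.9 CPM to 21.3, 21.02 and 26.6, or 0.95 ± 0.0926 on the log2 scale (edgeR adjusted p = 9.51e-08). Tnfsf12, the cytokine TWEAK, rose by 0.77 ± 0.117 (edgeR adjusted p = 1.99e-05), although its reads are shared with overlapping genes. Myh10, a non-muscle myosin of cell contraction, rose by 0.59 ± 0.0406 (edgeR adjusted p = 1.26e-09), from 264 to 292 CPM to 414 to 434. All 5 macrophage markers (Cd68 among them) and all 8 fibroblast markers also rose in D2 against B6, and their part in these differences was not tested.

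B6-13D2 against B6 compares the reciprocal congenic strain with its background strain, and here too segment and line cannot be told apart. Of 150 genes, 93 were called (62.0%, against 58.3% of all genes by edgeR). Of these, 47 rose (31.3%, against 25.4%) and 46 fell (30.7%, against 32.9%), with a median log2 fold change of -0.01. The split was 54 to 36 with RLE size factors and 51 to 35 with DESeq2. Changes of at least 1 on the log2 scale were seen for 16 genes (10.7%, against 14.5%). Without B6 replicate 3, 94 genes were called (61.8%, against 54.7% of all tested genes). The summed share of counts and the median relative to the other autosomes, given above, were both higher in all 3 B6-13D2 libraries than in B6.

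Ybx2, an RNA-binding protein of germ cells, rose most among the named genes of this comparison, from 5.45, 5.25 and 5.02 CPM in B6 to 10.5, 11.8 and 11.3 in B6-13D2 (log2 fold change 1.09 ± 0.111 SE, edgeR adjusted p = 1.43e-07). Cd68 rose by 1.00 ± 0.0916 (edgeR adjusted p = 3.49e-08) and Pimreg, a mitotic regulator, by 0.76 ± 0.0858 (edgeR adjusted p = 5.39e-07). Of the 5 macrophage markers, Cd68 and Lyz2 rose here; Lyz2 averaged 20.1 CPM in B6-13D2 and 17.7 in B6. Chd3 fell by 1.06 ± 0.0527 (edgeR adjusted p = 8.57e-12), and Dlg4, a scaffold of synapses, by 1.04 ± 0.0647 (edgeR adjusted p = 2.03e-10). Myh10 fell by 0.98 ± 0.0417 (edgeR adjusted p = 9.79e-13), to 146, 137 and 146 CPM. All 8 fibroblast markers fell too, and with a summed level of 3095 to 3182 CPM in the B6-13D2 libraries; their part in the fall of Chd3, Dlg4 and Myh10 was not tested.

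By role, both directions were called in most groups; both comparisons share the B6 libraries. Of 14 vesicle traffic genes, 3 rose and 7 fell in B6-13D2 against B6, and 7 rose and 1 fell in D2 against B6. All 8 fibroblast markers fell in the former and rose in the latter, and their part in the counts of these groups was not tested. Of 17 transcription and chromatin genes, 2 rose and 7 fell in B6-13D2, and 5 rose and 8 fell in D2. Cell division genes went 3 up and 2 down of 8 in B6-13D2 and 1 up and 6 down in D2. Aurkb rose by 0.38 ± 0.0501 in B6-13D2 (edgeR adjusted p = 4.11e-06). Translation genes went 4 up and 1 down of 8 in B6-13D2 and 0 up and 3 down in D2, and metabolic genes 6 up and 4 down of 14 and 2 up and 2 down. These counts depend on the scaling. With RLE size factors, 6 transcription genes rose and 3 fell in B6-13D2 (4 and 3 with DESeq2), which turns the balance, and 5 rose and 6 fell in D2 with either. Translation genes then went 6 up and 1 down in B6-13D2 with either, and 3 up and 3 down in D2 with RLE size factors or 1 up and 2 down with DESeq2. With either, 3 vesicle traffic genes rose and 5 fell in B6-13D2. Over all tested genes, 58.3% were called in the former comparison and 60.0% in the latter.

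B6-13D2 against D2 compares strains that share the D2 segment and differ in background. Here 116 of 150 genes were called (77.3%, against 74.6% of all genes by edgeR), 68 higher (45.3%, against 36.7%) and 48 lower in B6-13D2 (32.0%, against 38.0%). The median log2 fold change was 0.13, where it was 0.00 over all tested genes. Changes of at least 1 on the log2 scale numbered 46 (30.7%, against 28.1%), and Myh10 was among them, at -1.56 ± 0.0418 SE (edgeR adjusted p = 4.47e-16). In this comparison all 8 fibroblast and 4 of 5 macrophage markers fell and all 8 stem cell markers rose, and their part in the block's changes and in that of Myh10 was not tested. Without B6 replicate 3, 117 genes were called (77.0%, against 74.1% of all tested genes).

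Regulators and targets of p53 that lie outside the block had a direction in D2-13B6 that depended on the group it was set against. Of 18, 6 had a log2 fold change above 0 against D2, 11 against B6 and 14 against B6-13D2; against the mean of the 3 groups, 16 had a shift above 0, with a median of 0.16. Ccng1 and Trp53i13 lie on chromosome 11, at shifts of 0.36 and 0.52, where the chromosome's other tested genes had a median of 0.37. Of the 16 genes on other chromosomes, 5, 9 and 12 were above 0 in the same order and 14 against the mean, with a median of 0.15. Mdm2, the ubiquitin ligase of p53, averaged 320.0 ± 6.23 CPM (SD, n = 3) in D2-13B6, 343 ± 8.27 in D2, 294.5 ± 9.61 in B6 and 176.5 ± 4.74 in B6-13D2. Cdkn1a, which encodes the cell cycle inhibitor p21, averaged 397 ± 6.35 CPM in D2-13B6, 522 ± 30.7 in D2, 421 ± 8.56 in B6 and 221 ± 6.20 in B6-13D2. Both were lower in D2-13B6 than in D2 and higher than in B6-13D2. The summed fibroblast markers were likewise at 7731 to 8055 CPM in D2-13B6, 14180 to 16970 in D2 and 3095 to 3182 in B6-13D2, and their part in this was not tested. Among the tested comparisons, 11 of 18 rose and 3 fell in D2 against B6, where 29.8% of all genes rose and 30.3% fell. In B6-13D2 against B6, 3 rose and 12 fell, against 25.4% and 32.9% of all genes. Cdkn1a fell by 0.93 in B6-13D2 against B6 (edgeR adjusted p = 1.28e-12), Ccng1, a cyclin induced by p53, by 0.87 (edgeR adjusted p = 1.22e-12) and Mdm2 by 0.74 (edgeR adjusted p = 5.28e-12). For Trp53 itself that comparison was not called under every scaling, as given above. Mdm4, a relative of Mdm2, rose by 0.46 (edgeR adjusted p = 7.64e-10). The fibroblast markers fell in that comparison too, and their part in these values was not tested.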

How the data were processed

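The authors deposited expected counts, which are estimates and can be fractions, for each Ensembl gene ID in 12 libraries. The title of the file names EMASE, which divides reads that fit several genes. The submitters' processing notes name Bowtie 1.0.0, edgeR 3.34.1 and mm10, with no role; strand use and the annotation release are not given in the sources used here. Of all values, 88.1% were whole to within 1e-06. Positions and types came from GENCODE M21 by ID (42462 of 43346 matched; the rest held 0.361% of reads); promoters came from RefSeq tables.

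Counts were rounded and fitted in R 4.3.3 with edgeR 4.0.16: filterByExpr (minimum count 10), TMM, a quasi-likelihood F test with 4 group means, and Benjamini-Hochberg adjustment at 0.05 over 17148 genes, tested on simulated data. SE is the absolute log2 fold change over the square root of F. Library deviations used log2(CPM + 0.5). Of 150 tested block genes, 41 had divided reads and 48 overlap a gene on the opposite strand. Members and gene lists were chosen with earlier results of these data known. Named genes were Trp53, the 5 highest and 5 lowest in D2-13B6, the 3 highest and lowest called genes without overlap and with an average log2 CPM no lower than 2 in D2 and in B6-13D2 against B6, the border genes and up to 4 abundant genes per list. Alternatives were DESeq2 1.42.0, RLE factors, other filters, whole counts alone, other references, the replicate block and leaving out each library.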

Additional observations from a re-analysis of the deposited data

Results flagged for a closer look

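On each background the lines are compared as B6 over D2 segment. This is B6 minus B6-13D2 on the B6 background and D2-13B6 minus D2 on the D2 background. These differences are called effects below, but a segment cannot be told apart from its line. All of chromosome 11 was higher in D2-13B6, as given above. In 17 named block genes every library moved one way on the B6 background and the other way on the D2 background. How many of all tested genes did so was not counted, and some named genes were picked by their D2-13B6 values. The number 17 is therefore read no further. The difference between these effects was not tested, because D2-13B6 chose the block. In 10 of the 17 the D2 background effect was the positive one, as it was for most of the block. Ybx2 had log2 effects of -1.09 on the B6 and 1.18 on the D2 background, which differ by 2.27. The gap was 1.44 for Acap1, 1.11 for Aurkb, 1.09 for Tnk1 and 1.01 for Ctc1. It was 0.90 for Pfas, 0.84 for Psmb6, 0.76 for Fxr2, 0.51 for Slc25a11 and 0.48 for Mybbp1a. In the other 7 the B6 background effect was the positive one. Chd3 had 1.06 and -0.76, a difference of -1.81, and Dlg4 1.04 and -0.74, a difference of -1.77. The difference was -2.75 for Myh2, on 12 to 52 counts a library, -1.29 for Myh10, -1.16 for Gabarap, -0.98 for Kif1c and -0.95 for Ndel1. The summed fibroblast markers were lower in both congenic lines than in their background strains, and their part in these 7 was not tested. Trp53 is not among the 17.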

How the results depend on the processing

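Relative to the other genes of chromosome 11 in place of the other autosomes, the median shift of the block in D2-13B6 was 0.03 against D2, 0.00 against B6 and -0.04 against B6-13D2, the last with its sign turned; this follows from the shift of the whole chromosome. With whole counts alone the medians were 0.48, 0.36 and 0.29. When genes had to average 1 CPM or more, they were 0.41 against B6 and 0.36 against B6-13D2, and without a filter 0.33 and 0.38. With only the compared libraries the median against B6 was 0.40. The cause of these movements was not tested. Leaving out 1 library gave 0.44 to 0.48, 0.37 to 0.40 and 0.32 to 0.35 in the same order. It gave 85 to 95 called genes in D2 against B6, 82 to 96 in B6-13D2 against B6 and 112 to 118 in B6-13D2 against D2. When calls also needed a change of 0.5 or more on the log2 scale, 44 genes remained in D2 against B6 (29.3%, against 27.3% of all tested genes). There were 52 in B6-13D2 against B6 (34.7%, against 28.8%) and 79 in B6-13D2 against D2 (52.7%, against 47.7%). With the replicate number as a block, 96, 92 and 115 genes were called, 94, 92 and 115 of them shared, and the median shifts stayed 0.45, 0.38 and 0.33. Those calls were 64.0%, 61.3% and 76.7% of the block genes, against 59.3%, 57.8% and 74.1% of all tested genes. Same-numbered libraries shared only a number: their deviations had a mean correlation of -0.0088 over 18 pairs. Calls of Trp53 and Polr2a in B6-13D2 against B6 were lost with RLE size factors and DESeq2. Genes under 1 CPM, 18 of those tested, are the least certain.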

Other observations

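Beside Sat2, Myh2, Cfap52 and Aipl1, the block genes with a lower mean in D2-13B6 than in each other group included Slc35g3 and Eno3, named because of their values. For Cfap52 this depends on the scaling: its log2 fold change against B6 was -0.05, and 0.0 with RLE size factors or DESeq2. Eno3, the muscle enolase, had 10.3 to 11.4 CPM in D2-13B6, overlapping B6 (10.8 to 12.1) and D2 (10.97 to 12.8), and 13.5 to 17.0 in B6-13D2. Slc35g3, of a family of nucleotide sugar transporters, had at most 0.642 CPM in any library.

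Markers of other cell types differed between the groups as well. The 6 primitive endoderm markers summed to 36.3 to 38.1 CPM in D2-13B6, 40.7 to 43.4 in D2, 32.1 to 33.3 in B6 and 15.0 to 15.7 in B6-13D2. Dab2 carried most of that sum, at means of 21.9 CPM in D2-13B6 and 29.7 in D2, whereas Sox17 averaged 1.54 CPM in D2-13B6 and at most 0.524 elsewhere, and 5 of the 6 had a shift above 0 (median 0.57). The 5 trophoblast markers summed to 38.95 to 41.4 CPM in D2-13B6, 50.4 to 52.5 in D2, 61.2 to 71.4 in B6 and 88.2 to 90.4 in B6-13D2. Tfap2c carried most of that order, at means of 11.8 CPM in D2-13B6 and no less than 31.6 elsewhere, whereas Cdx2 (4.49 against at most 3.55) and Krt8 (19.7 against at most 11.7) were highest in D2-13B6.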
